A study of Mus musculus with 16 samples.

Results

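The microRNAs described here are 5 mature microRNAs best known from neural tissue: mmu-miR-219a-5p, mmu-miR-9-5p, mmu-miR-9-3p, mmu-miR-128-3p and mmu-miR-124-3p, called by their names without the species prefix from here on. They were taken by name from a table of 1915 mature mouse microRNAs counted in extracellular vesicles (EVs) of bone marrow plasma, and all 5 have a row in it. Of the 5, 4 had at least 1 count, and 3 passed a filter on low counts and entered the test between groups: miR-219a-5p, miR-9-5p and miR-128-3p.

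The EVs came from mice on the C57BL/6N background, 6 months old at sacrifice, and were captured with beads carrying an antibody to the HA tag. All mice carried the CAGS-Snorkel transgene. In 6 mice (3 male and 3 female) it was combined with Ocn-Cre, whose osteocalcin promoter is active in mature osteoblasts and osteocytes. In the other 10 mice (5 male and 5 female) it was combined with Prx1-Cre, active in early limb mesenchyme and in the cells that descend from it. The groups are called Ocn and Prx1, and sex is given per group only. Each library is 1 mouse. Libraries of mice without Cre, or of plasma before capture, were not analysed here, so no background of the capture stands beside the values.

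MicroRNAs are cut from a hairpin RNA whose arms, 5p and 3p, each give a mature strand of just over 20 bases, and bases 2 to 8 of that strand, the seed, pair with target messenger RNAs. miR-124 is the most neuron-specific of the 5 and is best known for silencing non-neuronal genes in differentiating neurons. miR-9, from either arm, acts in neural progenitors and is also found in some blood cells. miR-128 is enriched in brain and is also made in blood progenitors, and miR-219a promotes the differentiation of oligodendrocytes, the myelinating cells of the central nervous system.

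The mature sequences of 4 of the 5 were read from RefSeq (build GRCm38.p6), and they are shown because the counts turn on which hairpin and which seed each strand has. Capitals mark the seed, and no pair of the 4 shares one.
miR-219a-5p: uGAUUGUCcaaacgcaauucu
miR-9-5p: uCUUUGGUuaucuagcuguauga
miR-9-3p: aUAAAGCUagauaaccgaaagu
miR-128-3p: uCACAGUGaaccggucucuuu

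Each of the mature strands with a sequence comes from more than 1 hairpin, so their counts cannot be assigned to a single locus. miR-219a-5p comes from 2 hairpins on the minus strand of GRCm38 (mm10). Mir219a-1 lies in an exon of the noncoding Gm26940 at chr17:34024983-34025092, 303 bases from Ring1, and Mir219a-2 lies outside other annotated genes of its strand at chr2:29845631-29845727, 629 bases from Urm1. miR-9-5p and miR-9-3p come from Mir9-1 (chr3:88215598-88215686, in an intron of the noncoding Gm3764), Mir9-2 (chr13:83738814-83738885, in an exon of the noncoding C130071C03Rik) and Mir9-3 (chr7:79505264-79505353, in an intron of Mir9-3hg), all on the plus strand. miR-128-3p comes from Mir128-1 (chr1:128202361-128202430, plus strand, in an intron of R3hdm1) and Mir128-2 (chr9:112118636-112118711, minus strand, in an intron of Arpp21).

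Library totals ran from 582660 to 1536421 counts in Ocn but only from 225273 to 813770 in Prx1, so that depth differed with the group. Only 5 libraries lay in the range of totals that both groups hold, namely Ocn 1, Ocn 3, Ocn 6, Prx1 8 and Prx1 9. Levels are given as CPM, the count scaled to the library total. MicroRNAs that mark marrow and bone tissue were present in every library: the summed CPM of 3 myeloid and pan-leukocyte microRNAs (miR-223-3p and both arms of miR-142a) ran from 39067 to 94359 in Ocn and from 42090 to 68987 in Prx1, and that of 5 mesenchymal and stromal microRNAs ran from 31426 to 43032 in Ocn and from 26518 to 34989 in Prx1. Single markers of other cells also passed the test between groups, as did 32 of all 234 tested microRNAs (13.7%). With log10 depth as a covariate, 0 of the 234 passed. Of 2 lymphocyte microRNAs 1 was lower in Ocn, miR-150-5p (log2 fold change -1.05, edgeR adjusted p = 0.00125), and their sum ran from 2019 to 4495 CPM in Ocn and from 2780 to 5828 in Prx1. Lower in Ocn were also 1 of 4 erythroid microRNAs, miR-486a-5p (-0.38, edgeR adjusted p = 0.0451; sums of 14654 to 27749 and 18434 to 27471 CPM), and 1 of 3 muscle microRNAs, miR-133a-3p (-0.68, edgeR adjusted p = 0.00819; sums of 46680 to 77323 and 39775 to 70705 CPM). These lists did not move as a whole: 3 of the 4 erythroid microRNAs had a log2 fold change above 0, as did 1 of the 3 muscle microRNAs, miR-1a-3p (0.34). Higher in Ocn was 1 of the 5 mesenchymal microRNAs, miR-199a-5p (0.43), with 3 of the 5 above 0. Neither endothelial microRNA and none of the 3 leukocyte microRNAs passed with edgeR, and the part of these shifts in the values of the neural microRNAs was not tested. The liver microRNA miR-122-5p stood at 1644 CPM in Prx1 5, where its median was 7.17 CPM over Prx1 and its highest level in Ocn was 23.5 CPM. Beside these sums, the 5 neural microRNAs together made up 792 ± 51 CPM in Ocn (SD, n = 6) and 770 ± 104 CPM in Prx1 (SD, n = 10), and miR-128-3p alone held 82.2% of their pooled counts in Ocn and 88.2% in Prx1.

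The question put to the data was whether any of these microRNAs had another level in EVs of the Ocn-Cre mice than in EVs of the Prx1-Cre mice. miR-219a-5p was higher in Ocn, by 1.76-fold, in the fit on group alone (edgeR adjusted p = 0.00981). With log10 depth as a covariate it did not pass (edgeR adjusted p = 0.191), and 8 of the 10 Prx1 libraries were shallower than every Ocn library. miR-9-5p had a fitted ratio of 1.30 and did not pass the test, and miR-128-3p stood at about the same level in both groups, with a ratio of 0.919. miR-9-3p was at the limit of detection, and miR-124-3p had no count in any library. In RNA pooled from all captured vesicles, fewer vesicles from a cell type and less of a microRNA per vesicle cannot be told apart.

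miR-219a-5p had 63 to 183 counts in each Ocn library and 6 to 59 in each Prx1 library. In Ocn its lowest level was 75.7 CPM (Ocn 2), its median 110 CPM and its highest 197 CPM (Ocn 3). In Prx1 its lowest level was 26.6 CPM (Prx1 4), its median 64.2 CPM and its highest 98.9 CPM (Prx1 8). The groups overlapped through Prx1 8 only: the other 9 Prx1 libraries lay below every Ocn library, and 4 of 6 Ocn libraries lay above every Prx1 library. The groups did not overlap at all for 9 of 234 tested microRNAs (3.85%), none of them described here. The means were 118 ± 42 CPM in Ocn (SD, n = 6) and 62.6 ± 18.4 CPM in Prx1 (SD, n = 10).

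The log2 fold change of miR-219a-5p, Ocn over Prx1, was 0.82 (SE 0.20), with an edgeR adjusted p of 0.00981 over the 234 microRNAs tested. In that fit 32 of the 234 microRNAs passed an adjusted p of 0.05, or 13.7%, with 14 (5.98%) higher and 18 (7.69%) lower in Ocn. Upper quartile scaling gave 26 higher and 11 lower, and left the call of miR-219a-5p in place (log2 fold change 0.94, edgeR adjusted p = 0.00412). Of the 3 neural microRNAs tested, 1 passed. Without a model of the counts, the mean log2(CPM + 1) of miR-219a-5p differed by 0.90 (exact permutation test, 2-sided, p = 0.000749), and its p adjusted over the 973 microRNAs with a count was 0.0561, just short of a threshold that 12 of the 973 (1.23%) passed.

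**Figure D1:**
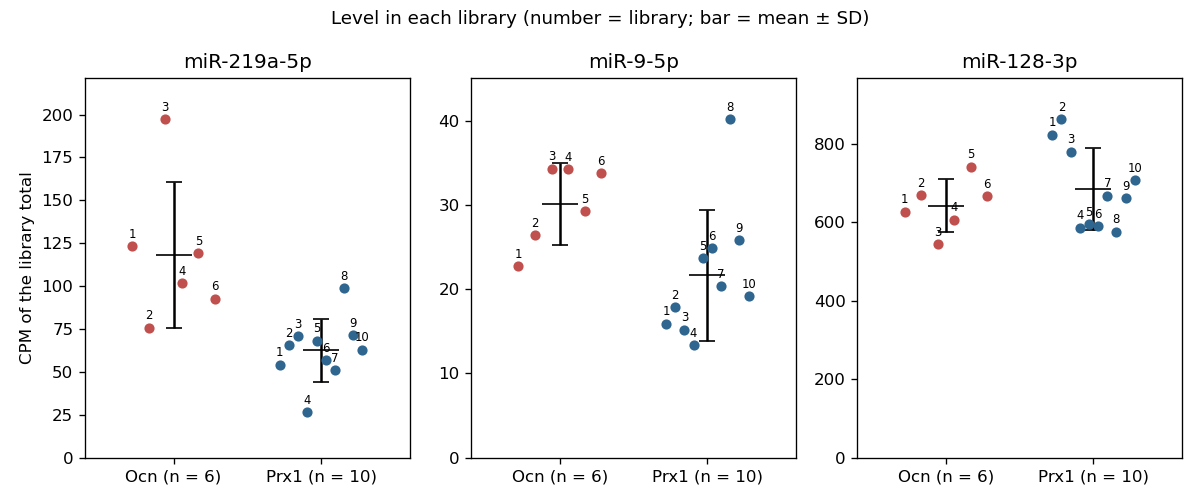
Level of miR-219a-5p, miR-9-5p and miR-128-3p in each library, in CPM of the library total on linear axes from 0; each point is 1 mouse with its library number, and bars are the group mean ± SD (Ocn, n = 6; Prx1, n = 10). All 6 Ocn libraries lie above the Prx1 mean of 62.6 CPM for miR-219a-5p, whereas the ranges of the groups overlap over most of their length for miR-128-3p.

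Ocn 3 and Prx1 8 were the libraries that stood highest in their group for miR-219a-5p. Without Ocn 3 the log2 fold change was 0.71 (edgeR adjusted p = 0.0182), and without Prx1 8 it was 1.00 (edgeR adjusted p = 0.00174). Over all 16 fits with 1 library left out it ran from 0.71 to 1.00, with edgeR adjusted p from 0.00174 to 0.0182. The spread of miR-219a-5p within Ocn was larger than counting error: its coefficient of variation was 35.9%, where counting alone gives 10.1%. In Prx1 it was 29.3%, where counting alone gives 21.1%.

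The result was read against depth, which differed with the group. Among the Prx1 libraries, Prx1 4, the shallowest, had the lowest miR-219a-5p, and Prx1 8 and Prx1 9, the deepest, had the highest, at 98.9 and 71.3 CPM. Ocn did not show this order. There Ocn 3, the shallowest at 582660 counts, had the highest level, 197 CPM, and Ocn 2, at 1135952 counts, had the lowest, 75.7 CPM. With log10 depth as a covariate the log2 fold change was 0.74 (SE 0.29, edgeR adjusted p = 0.191, unadjusted p = 0.0203), in a fit in which 0 of 234 microRNAs passed and 40 did so before adjustment. Among the 5 libraries of like total it was 0.63 (SE 0.36, edgeR adjusted p = 0.507), where 0 of 247 passed and 30 did so before adjustment. These log2 fold changes were 89.8% and 76.5% of the one in the fit on group alone, with a wider error. With depth so unlike between groups, and only 5 libraries of like total, these fits cannot tell depth and group apart.

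**Figure D2:**
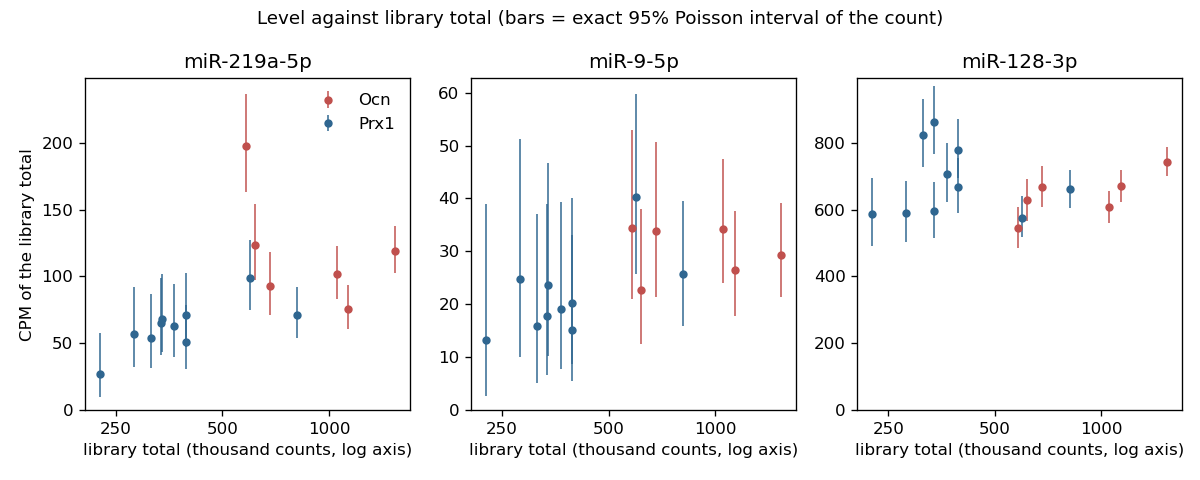
Level of the same 3 microRNAs in CPM against the library total on a log axis; each point is 1 library (red, Ocn; blue, Prx1), and bars are exact 95% Poisson intervals of the count, which cover counting error only. The 8 Prx1 libraries shallower than every Ocn library hold the 8 lowest levels of miR-219a-5p, and the intervals of miR-9-5p overlap widely.

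The 3p strand counted from the same hairpins did not have its higher mean in Ocn. Each Mir219a hairpin has its own 3p strand. miR-219a-1-3p, from chromosome 17 (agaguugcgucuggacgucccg), was counted in 15 of 16 libraries, with 75 counts in all, while miR-219a-2-3p, from chromosome 2, had 0 counts in 9663370, which allows up to 0.310 CPM. The level of miR-219a-1-3p was 6.84 ± 4.21 CPM in Ocn (SD, n = 6) and 8.71 ± 4.48 CPM in Prx1 (SD, n = 10), a difference within the spread between libraries (exact permutation test, p = 0.394, adjusted p = 0.801). Ocn 3, which had the highest level of miR-219a-5p, was the library with no count of miR-219a-1-3p.

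Both Mir219a hairpins are shown because they share the 5p strand, in capitals, and differ in the rest, so the 3p counts can be placed and the 5p counts cannot.
Mir219a-1: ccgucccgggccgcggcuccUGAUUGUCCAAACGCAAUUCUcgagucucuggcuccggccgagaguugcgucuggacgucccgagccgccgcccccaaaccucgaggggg
Mir219a-2: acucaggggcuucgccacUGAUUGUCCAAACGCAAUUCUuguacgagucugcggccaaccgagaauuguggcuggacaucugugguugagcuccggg

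The log2 ratio of miR-219a-5p to miR-219a-1-3p, with 0.5 added to each count, was 4.30 ± 1.75 in Ocn against 2.75 ± 0.75 in Prx1 (SD, n = 6 and 10). It was higher in Ocn by 1.56 (exact permutation test, 2-sided, p = 0.00737), in a test chosen after the counts of both strands were seen. Without Ocn 3 the difference was 0.85 (exact permutation p = 0.0350). miR-219a-1-3p had only 0 to 12 counts in each Ocn library and 1 to 8 in each Prx1 library, so the ratio depends on the 0.5 added and on depth. Its 5p counts come from both hairpins and its 3p counts from Mir219a-1 alone, so it is not the ratio of a single hairpin. In pooled counts the 5p strand made up 94.2% of both strands in Ocn (exact 95% interval 92.1% to 95.8%) and 88.3% in Prx1 (84.2% to 91.7%), intervals that cover counting error and not the spread between mice. The opposite strand of each hairpin is annotated too: miR-219c-5p, across from Mir219a-1, had 14 counts in 9 libraries, and miR-219c-3p and both strands of miR-219b had none. Whether the counting used strand is not given in the sources used here.

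miR-9-5p was counted in all 16 libraries at low depth, with 14 to 45 counts in each Ocn library and 3 to 24 in each Prx1 library. In Ocn its lowest level was 22.7 CPM (Ocn 1), its median 31.5 CPM and its highest 34.3 CPM (Ocn 3). In Prx1 its lowest level was 13.3 CPM (Prx1 4), its median 19.7 CPM and its highest 40.2 CPM (Prx1 8). The groups overlapped, as Prx1 8 lay above every Ocn library and 6 of 10 Prx1 libraries lay below every Ocn library.

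The mean level of miR-9-5p was 30.1 ± 4.9 CPM in Ocn (SD, n = 6) and 21.6 ± 7.8 CPM in Prx1 (SD, n = 10). The log2 fold change was 0.38 (SE 0.23) and did not pass (edgeR adjusted p = 0.281). The 95% interval of the ratio ran from 0.952 to 1.77. The exact permutation test of mean log2(CPM + 1) gave a difference of 0.51 (p = 0.0240, adjusted p = 0.365). A count of 3, as in Prx1 4, has an exact Poisson interval of 2.75 to 38.9 CPM, which holds all 6 Ocn levels. Between libraries miR-9-5p varied about as much as counting alone would give, with a coefficient of variation of 16.1% against 20.1% in Ocn and 35.9% against 35.9% in Prx1.

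The value of miR-9-5p changed with 1 library and with depth. Without Prx1 8 its log2 fold change was 0.62 and it passed (edgeR adjusted p = 0.0481), in a fit in which 36 of 215 microRNAs (16.7%) did. With log10 depth as a covariate the log2 fold change was 0.09 (SE 0.33, edgeR adjusted p = 0.910). Among the 5 libraries of like total it was -0.16 (SE 0.43, edgeR adjusted p = 0.894).

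miR-9-3p, the other strand of the same hairpins, had 6 counts in all: 1 in Ocn 2, 2 in Ocn 3, 2 in Ocn 5 and 1 in Prx1 5. Cut to the total of the shallowest library, 1.09 of 6 Ocn and 0.667 of 10 Prx1 libraries would be expected to hold a count, so the 3 Ocn and 1 Prx1 libraries in which it was seen were read at unequal depth. In a fit without a low-count filter, in which 27 of 973 microRNAs (2.77%) passed, miR-9-3p did not (edgeR adjusted p = 0.483). The 5p strand made up 97.8% of the 269 counts of both strands (exact 95% interval 95.2% to 99.2%). The log2 ratio of the strands, with 0.5 added to each count, was 4.69 ± 1.11 in Ocn against 3.91 ± 0.98 in Prx1 (SD, n = 6 and 10), and the groups did not differ past the threshold (exact permutation test, p = 0.160). With miR-9-3p at 0 in 12 libraries this ratio mostly follows the 5p count, and so the depth of the library, and the number added. With 2 added to each count the difference was 1.11 (exact permutation p = 0.0120). As depth was mostly greater in Ocn, that value cannot tell a change between the strands from depth.

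miR-128-3p was the most abundant of the 5, with 317 to 1140 counts in each Ocn library and 132 to 538 in each Prx1 library. In Ocn its lowest level was 544 CPM (Ocn 3), its median 647 CPM and its highest 742 CPM (Ocn 5). In Prx1 its lowest level was 576 CPM (Prx1 8), its median 665 CPM and its highest 863 CPM (Prx1 2). The ranges overlapped over most of their length, and Ocn 3 and Prx1 8, highest in their group for miR-219a-5p and miR-9-5p, were the lowest for miR-128-3p. For miR-9-5p, though, Ocn 3 stood barely above Ocn 4 and Ocn 6 (34.3 against 34.2 and 33.8 CPM).

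The mean level of miR-128-3p was 643 ± 67 CPM in Ocn (SD, n = 6) and 685 ± 106 CPM in Prx1 (SD, n = 10). Its log2 fold change was -0.12 (SE 0.12, edgeR adjusted p = 0.556), and the 95% interval of the ratio, 0.783 to 1.08, leaves out a change of the size seen for miR-219a-5p. The sign was not fixed: it was 0.016 with upper quartile scaling and 0.0045 without Ocn 3. Depth was not the limit here, as counting alone gives a coefficient of variation of 4.35% in Ocn and 6.37% in Prx1, where 10.4% and 15.4% were measured. The 5p strands, which tell the hairpins apart, were rare: miR-128-1-5p (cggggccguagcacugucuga) had 20 counts in 9 libraries and miR-128-2-5p (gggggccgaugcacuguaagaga) had 13 counts in 9 libraries. Neither had more than 4 counts in a library, and the aligner is not given, so the share of each Mir128 locus was not read from them.

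**Figure D3:**
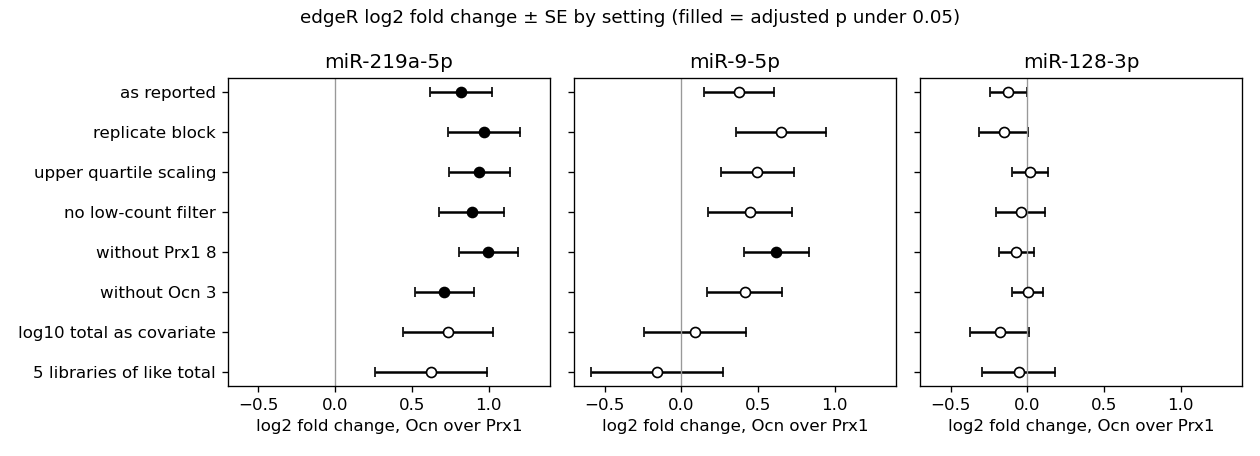
edgeR log2 fold change of Ocn over Prx1 ± SE for the 3 tested microRNAs under the reported fit and 7 alternatives; filled points have an adjusted p under 0.05. miR-219a-5p stays between 0.63 and 1.00, miR-9-5p runs from -0.16 to 0.65, and miR-128-3p stays near 0.

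The seed of miR-128-3p is also held, 1 base further along, by the miR-27 pair, which is printed with those letters in capitals.
miR-27a-3p: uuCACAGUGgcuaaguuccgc
miR-27b-3p: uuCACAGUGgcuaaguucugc
Both were higher in Ocn in the fit on group alone. miR-27a-3p averaged 699 ± 139 CPM in Ocn against 427 ± 89 CPM in Prx1 (log2 fold change 0.66, SE 0.14, edgeR adjusted p = 0.00299). miR-27b-3p had 4264 ± 758 and 3222 ± 283 CPM (log2 fold change 0.36, SE 0.11, edgeR adjusted p = 0.0220). Neither passed with log10 depth as a covariate or among the 5 libraries of like total, fits in which 0 microRNAs passed. These 2 sequences differ by 1 base, so their reads may be shared. No other tested microRNA with a sequence held a seed of miR-219a-5p, miR-9-5p, miR-9-3p or miR-128-3p at bases 2 to 8 or 1 base to either side.

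miR-124-3p was not detected. Its count was 0 in each of the 6 Ocn and 10 Prx1 libraries, and that of miR-124-5p was 0 as well. Over the 5603863 counts of Ocn this allows up to 0.535 CPM, and over the 4059507 counts of Prx1 up to 0.739 CPM. In single libraries the limit runs from 1.95 CPM in the deepest to 13.3 CPM in the shallowest. Ordered by level, miR-128-3p stood above miR-219a-5p, miR-219a-5p above miR-9-5p and miR-9-5p above miR-9-3p in each of the 16 libraries. Ligation of the adaptors can differ between sequences, so this order is one of counts.

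A wider list of 24 microRNAs known from neural tissue was read beside the 5. Of these, 23 had a count and 7 were tested, of which 1 was higher in Ocn and 0 were lower, beside 5.98% higher and 7.69% lower over all 234 tested. The one that passed was miR-218-5p, known from motor neurons and also from bone, at 392 ± 62 CPM in Ocn against 290 ± 30 CPM in Prx1 (log2 fold change 0.39, SE 0.12, edgeR adjusted p = 0.0283). It missed the threshold without any of 6 libraries, without a low-count filter (edgeR adjusted p = 0.104), with the replicate block (edgeR adjusted p = 0.108), a fit in which 27 of 234 microRNAs (11.5%) passed, and with log10 depth as a covariate (edgeR adjusted p = 0.347). Among the 5 libraries of like total its log2 fold change was 0.17 (edgeR adjusted p = 0.791). The median log2 fold change of the 7 was 0.04, beside 0.01 over all 234 tested.

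miR-338-3p, which acts beside miR-219a in oligodendrocyte differentiation, averaged 79.5 ± 26.3 CPM in Ocn against 62.7 ± 14.8 CPM in Prx1 (log2 fold change 0.29, SE 0.19, edgeR adjusted p = 0.323). miR-7a-5p, abundant in neuroendocrine cells, was the highest of the list, at 1160 ± 271 CPM in Ocn against 1098 ± 176 CPM in Prx1, and a log2 fold change of 0.04 (SE 0.13). miR-149-5p had a log2 fold change of -0.16, miR-132-3p, induced by neuronal activity, 0.28, and miR-183-5p and miR-182-5p, of sensory cells, -0.05 and -0.06. None of these 6 passed over all tested. The other 17 members were below the filter, and those named next were chosen after their counts were seen. Their totals over the 16 libraries ran from 0 counts for miR-129-1-3p to 134 for miR-134-5p, which was counted in 15 libraries. miR-212-5p had 78 counts in all 16 libraries, miR-135a-5p had 51 and miR-129-5p had 45, while miR-137-3p had 22, miR-138-5p had 7 and miR-153-3p had 2.

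**Figure D4:**
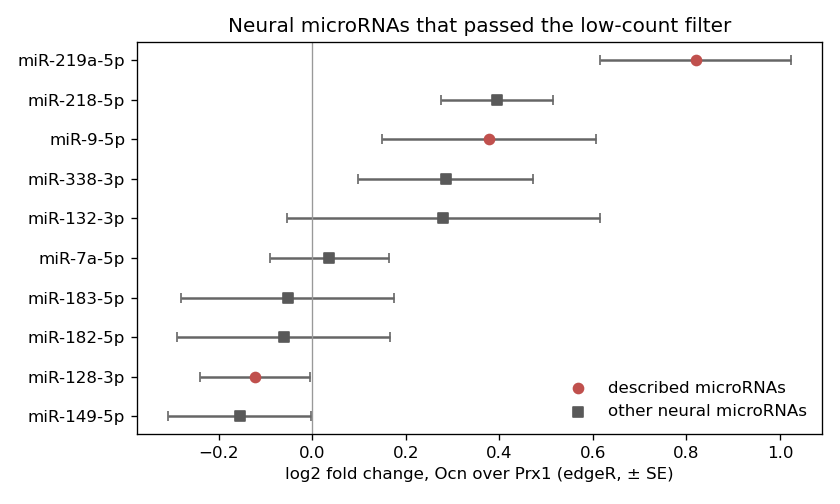
edgeR log2 fold change of Ocn over Prx1 ± SE for the 10 neural microRNAs that passed the low-count filter (red circles, the 3 described here; grey squares, 7 others of the wider list). miR-219a-5p has the largest value at 0.82, and 6 of the 10 lie above 0.

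By pattern over the 16 libraries, the tested microRNAs most like miR-219a-5p were miR-26a-5p, miR-9-5p and miR-181a-5p, with Spearman rho of 0.81, 0.74 and 0.74 of log2 CPM. Those most like miR-9-5p were miR-219a-5p (0.74), miR-27b-3p (0.74) and miR-181a-5p (0.72). Those most like miR-128-3p were miR-107-3p (0.78), miR-15b-5p (0.78) and miR-744-5p (0.74), while its rho was -0.24 with miR-219a-5p and -0.49 with miR-9-5p. These are descriptions over libraries that differ in group and in depth, which the likeness can carry. Of the microRNAs most like miR-219a-5p, miR-181a-5p was higher in Ocn in the fit on group alone (3083 ± 403 against 1973 ± 253 CPM, log2 fold change 0.61, SE 0.11, edgeR adjusted p = 0.00125). With log10 depth as a covariate it did not pass. miR-26a-5p did not pass in the fit on group alone (27824 ± 2057 against 23900 ± 775 CPM, log2 fold change 0.19, SE 0.08, edgeR adjusted p = 0.154).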

How the data were processed

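Per the labels' protocols, libraries were made from 1 ng of RNA by ligating adaptors to both ends of the small RNAs. The authors deposited raw counts, 1 row per mature microRNA and without normalization, as whole numbers whose totals differ between libraries. Per the submitters' processing notes, cutadapt 1.18 and mm10 were used. Not given in the sources used here are the aligner, the counter, and whether reads or molecular identifiers were counted. Intervals cover counting error only. They, and the coefficients of variation from counting alone, take each count as independent, which was not tested.

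From the counts, Ocn and Prx1 were compared with the quasi-likelihood test of edgeR 4.0.16 (R 4.3.3, TMM factors, filterByExpr, robust, group alone), with Benjamini-Hochberg adjustment over all entries tested and a threshold of 0.05; the SE is the log2 fold change over the square root of F. The test was also run on simulated counts with changes set between the groups and no effect of depth, which says nothing on depth against group. Exact permutation tests enumerated all 8008 assignments of 6 and 10 labels (scipy 1.17.1), with 1 CPM added for levels. The 95% intervals of ratios are normal intervals on the log2 scale. A count of 0 allows 3 counts. Named are the 5 microRNAs, their other strands, a wider neural list, microRNAs that share a seed, and the 3 most alike by Spearman rho. The members and lists were chosen with earlier results of these data known. Alternatives were other scalings, filters, DESeq2 1.42.0, limma 3.58.1 voom, a replicate block, depth as a covariate, libraries of like total, and each library left out. Of 1915 entries, 1623 matched a RefSeq sequence by name. Hosts are from GENCODE M21.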

Additional observations from a re-analysis of the deposited data

Results flagged for a closer look

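Levels of 4 microRNAs were checked in each group for a library far from the rest, which chance gives in about 1 in 20 groups. miR-9-5p stood at 40.2 CPM in Prx1 8, with a gap to the next Prx1 library of 0.536 of the range of the group. miR-9-3p stood at 2.96 CPM in Prx1 5, from 1 count, with every other Prx1 library at 0, a pattern that is always marked when a single library holds a count and to which that rate does not apply.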

How the results depend on the processing

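No call of a neural microRNA held with depth in the model: for miR-219a-5p the log2 fold change was 0.74 with log10 depth as a covariate and 0.63 among the 5 libraries of like total, and in those fits 0 microRNAs were called in all, 0 higher and 0 lower in Ocn. The other 25 of 27 alternatives, DESeq2 and voom by their own adjusted p among them, kept miR-219a-5p higher in Ocn and past the threshold, with log2 fold changes from 0.62 (voom) to 1.00. Over single libraries left out, calls ran from 24 to 36 in all, from 8 to 20 higher (9, 8 and 9 without Prx1 1, Prx1 2 and Prx1 3) and from 13 to 20 lower. Calls higher in Ocn were 26 with upper quartile scaling, against 11 lower, as that scaling put the median log2 fold change of all tested at 0.13, and 24 with voom; without a low-count filter 27 were called in all. miR-9-5p reversed to -0.16 among the libraries of like total and ran from 0.30 to 0.62 with single libraries left out, past the threshold without Prx1 8 only. miR-128-3p reversed to 0.016 with upper quartile scaling and ran from -0.14 to 0.0045 with single libraries left out.

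The permutation test of miR-219a-5p passed after adjustment with 10 CPM added (0.81, exact permutation adjusted p = 0.0467), and its difference ran from 0.74 to 1.02 with single libraries left out, with adjusted p from 0.0216 (without Prx1 8) to 0.206. The miR-9 strand ratio passed with 2 counts added (1.11), a value that mostly follows the 5p count and so depth, which differed with the group. At 3 or more counts miR-9-3p was seen in 0 Ocn and 0 Prx1 libraries, and at equal depth in 1.09 Ocn libraries. Log2 fold changes near 0 in the wider list changed sign: miR-7a-5p to -0.027 with the replicate block and -0.039 with voom (-0.0033 to 0.14 with single libraries left out); miR-183-5p to 0.071 with upper quartile scaling, 0.023 without a filter, 0.42 with the covariate and 0.48 among libraries of like total (-0.13 to 0.092); miR-182-5p to 0.065, 0.017 and 0.026 under the first 3 of these (-0.14 to 0.070); and miR-149-5p to 0.13 among libraries of like total. The cause was not tested.

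Nothing in the labels ties same-numbered libraries across groups, and of 6 same-numbered pairs the correlation of deviations from the group means ran from 0.022 to 0.20, with no Ocn library closest to its own number. With the replicate block 27 microRNAs were called, 10 higher and 17 lower, and the log2 fold change was 0.97 for miR-219a-5p (edgeR adjusted p = 0.0143), 0.65 for miR-9-5p and -0.15 for miR-128-3p. Prx1 7, Prx1 8, Prx1 9 and Prx1 10 share no number with an Ocn library, so each was absorbed by its own block. The group effect of that fit therefore rests on the same-numbered libraries alone, where every Prx1 library was shallower than every Ocn library. At 6 counts in all, the depth allows no comparison of miR-9-3p.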
